A study of Mus musculus with 5 samples.

Results

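Skeletal and cardiac muscle contract by sliding myosin thick filaments along actin thin filaments, which are anchored at the Z disc and cross-linked at the M line. In skeletal muscle an action potential, started by acetylcholine receptors at the neuromuscular junction, opens calcium channels of the sarcoplasmic reticulum. Calcium then binds troponin to switch the thin filament on. In muscle development the transcription factor MyoD binds E-boxes, short DNA words of the form CANNTG, and switches on many of these genes. Medulloblastoma of this type arises from granule neuron precursors of the cerebellum, which are not muscle cells. The set described here holds 59 genes of muscle contraction and excitation, taken from a fixed list of gene symbols, out of 19057 genes that have a named probe on the array. Of the 59 genes, 54 had a named probe (114 probes in all). The other 5 (Myh2, Myh3, Cacna1s, Mybph and Xirp1) were not analysed here.

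The data are 5 Illumina mouse bead arrays, 1 for each end-stage medulloblastoma of mice with SmoA2, a mutant Smoothened that keeps hedgehog signalling on. Of the tumours, 3 came from the genotype MyoD+/+;SmoA2 (both copies of Myod1 present) and 2 from MyoD+/-;SmoA2 (1 copy). SmoA2 is carried by both groups, no tumour lacks it, and normal cerebellum and muscle were not analysed here. The labels give neither the promoter that drives SmoA2 nor the age of the mice, and do not state that each tumour is from a separate animal, so the p-values reflect only how these samples vary. The study asked whether genes of normal muscle differentiation are involved when loss of MyoD makes hedgehog-driven tumours form more readily. Levels below are log2 values after background correction and quantile normalization, on which undetected probes had a median of 4.60 to 4.61 per array and the dimmest detected probe of each array stood between 5.18 and 5.34. A probe counts as detected on an array where the deposited detection p is under 0.05.

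Each array detected 37.0% to 39.9% of the probes, at a median raw signal of 133.6 to 148.1. Of 10 granule lineage and hedgehog tumour markers 6 were detected on at least 2 arrays, with a median level between 10.64 and 11.42 per tumour, while Atoh1, Gli1, Pax6 and Mycn were detected on 0 arrays. Myod1, the targeted gene, was detected in all 5 tumours, with MyoD+/+ tumours 1 to 3 at 7.25, 6.38 and 7.08 and MyoD+/- tumours 1 and 2 at 6.31 and 6.67. The groups overlapped, and as it is not known here whether the Myod1 probe lies within the changed stretch of the gene, these levels need not reflect the lost copy.

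Muscle genes were detected somewhat less often than genes over the whole array. Of the 54 genes with a probe, 25 (46.3%) had a probe detected on at least 2 of the 5 arrays, against 55% of all genes with a probe. A further 4 were detected on 1 array, and 8 were detected in all 5 tumours. The share detected on 0 arrays was 25 of 54 (46.3%), against 40.0% of all genes with a probe. Of the 114 probes 29 were detected on at least 2 arrays, against 45.6% of all named probes, and 78 were detected on 0 arrays. With a stricter detection p of 0.01 the number of detected genes was 10. For the counts of 8 genes, 78 probes and 10 genes, the share over the whole array was not computed. A gene that is not detected is not shown to be absent, because detection also rests on its probe. Of the 25 genes detected on at least 2 arrays, 21 had several probes. In 20 of these at least 1 probe was detected on 0 arrays, among them Jph1, Itga7, Myl4, Tcap, Actn2 and Actn3. The muscle genes that passed the filter had a median level of 5.51, and all genes that passed had 7.67.

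**Figure D1:**
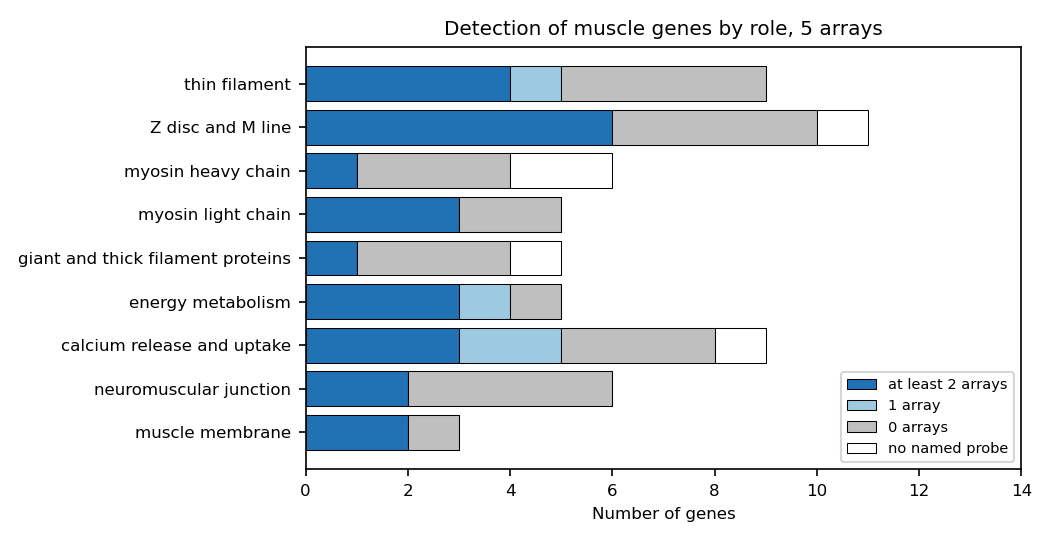
Number of muscle genes (horizontal axis) in each role, split by the number of arrays on which the gene's best probe was detected (at least 2, 1 or 0) or by having no named probe. Of the 4 myosin heavy chain genes with a probe 1 was detected on at least 2 arrays, and of the 10 Z disc and M line genes 6 were.

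Several genes of the contracting adult fibre were undetected, while others passed the filter, among them Mylpf, Atp2a1, Myl1, Actn3, Ttn and Ryr1. The fast myosin heavy chains Myh1 and Myh4 and the slow and cardiac Myh7, which are the motors of the thick filament, were detected on 0 arrays on each of their probes. Also at 0 arrays were the light chains Myl2 and Myl3, the troponins Tnni1, Tnni2 and Tnnt3, the actin nucleator Lmod2, the thin filament ruler nebulin (Neb) and the myosin-binding proteins Mybpc1 and Mybpc2. Muscle creatine kinase (Ckm), the calcium store protein Casq1, its companion Hrc and the calcium channel subunit Cacng1 were undetected too. At the neuromuscular junction the receptor subunits Chrna1, Chrnd and Chrng and the synapse-organising kinase Musk were at 0 arrays. The caveolin Cav3, the Z disc proteins Myoz1 and Csrp3, the ubiquitin ligase Trim63 and Klhl41 complete the 25. Their normalized levels lay between 4.32 and 5.13 over all their probes and tumours.

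Next to the threshold stood Casq2, Jsrp1, Pygm and Tpm2, each detected on 1 array and therefore not tested. Casq2, the cardiac form of the calcium store protein, was at 5.09, 5.75 and 5.13 in MyoD+/+ tumours 1 to 3 and at 4.74 and 5.18 in MyoD+/- tumours 1 and 2. The glycogen phosphorylase Pygm was at 5.31, 5.13 and 5.20 against 4.63 and 4.76. The Pygm groups did not overlap, as in 20.9% of all genes tested, although MyoD+/+ tumour 1 was the only one with a detected signal. Just inside, on 2 arrays each, stood Atp2a1, Ldb3, Myh8, Myom1, Myom2 and Tnnt1.

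Most relatives of these genes that also work in other cells were detected. A list of 31 such cytoskeletal, metabolic and channel paralogs of the muscle genes had 29 with a probe. The list is not free of muscle genes: Atp2a2 is also among the further muscle genes used below, and Myl9 among the smooth muscle markers. Of the 29, 27 were detected on at least 2 arrays, Myh14 and Itga6 being the exceptions at 0 arrays. Among them were the brain creatine kinase Ckb (14.92, 15.04 and 15.04 in MyoD+/+, 14.95 and 14.95 in MyoD+/-) and the non-muscle myosin Myh10 (9.71, 9.91 and 9.73, and 9.66 and 9.71). Levels of different probes cannot be set against each other, so the comparison concerns detection only.

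The upstream sequences of the muscle genes are shown because E-boxes are the words that MyoD reads. The table of RefSeq promoters (build GRCm38.p6) held 45 of the 59 genes. The 250 bases before the start of transcription held at least 1 E-box (CANNTG, which reads the same on both strands) in 39 of the 45, against 66.0% of all 27025 genes in that table and 61.7% of the 15237 with a named probe on the array. The word CAGCTG, an E-box that MyoD binds well, was in 20 of the 45 (44.4%), against 12.8% of all genes and 11.9% of those with a named probe. It was in 4 of the 19 tested genes (Atp2a1, Ckmt2, Myl1 and Mylpf) and in 14 of the 22 genes detected on 0 or 1 arrays, among them Ckm, Chrna1, Chrng, Musk, Cav3 and Casq1. The CArG box, read by serum response factor, was in 5 of the 45 and in 1.40% of all genes. A match is a description of these letters and not a binding site. Shown here, 5′ to 3′ on the strand of the gene with E-boxes in capitals, are the 3 tested genes that varied most between tumours (Myl1, Sgca and Tnnt1) and 2 classic MyoD target genes that were not detected (Ckm and Chrna1).
Myl1, chr1:66945057-66945306, minus strand: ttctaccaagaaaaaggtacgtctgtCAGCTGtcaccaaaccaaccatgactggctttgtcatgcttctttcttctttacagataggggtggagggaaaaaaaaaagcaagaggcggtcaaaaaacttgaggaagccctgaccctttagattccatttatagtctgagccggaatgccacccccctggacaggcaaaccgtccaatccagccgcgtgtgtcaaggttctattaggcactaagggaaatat
Sgca, chr11:94976328-94976577, minus strand: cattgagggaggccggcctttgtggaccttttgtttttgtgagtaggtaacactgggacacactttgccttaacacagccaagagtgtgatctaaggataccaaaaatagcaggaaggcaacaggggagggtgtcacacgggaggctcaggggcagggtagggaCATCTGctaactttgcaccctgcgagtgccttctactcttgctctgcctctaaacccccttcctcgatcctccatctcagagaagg
Tnnt1, chr7:4515976-4516225, minus strand: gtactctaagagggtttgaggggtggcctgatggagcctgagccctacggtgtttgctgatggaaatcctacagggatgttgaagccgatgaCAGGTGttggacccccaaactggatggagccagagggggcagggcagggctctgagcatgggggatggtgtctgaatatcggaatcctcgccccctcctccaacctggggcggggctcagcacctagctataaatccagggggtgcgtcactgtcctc
Ckm, chr7:19410844-19411093, plus strand: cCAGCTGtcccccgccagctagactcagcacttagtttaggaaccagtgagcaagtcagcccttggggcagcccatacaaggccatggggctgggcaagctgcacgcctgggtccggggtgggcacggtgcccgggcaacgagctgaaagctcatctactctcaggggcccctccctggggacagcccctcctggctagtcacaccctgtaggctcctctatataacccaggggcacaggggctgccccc
Chrna1, chr2:73580339-73580588, minus strand: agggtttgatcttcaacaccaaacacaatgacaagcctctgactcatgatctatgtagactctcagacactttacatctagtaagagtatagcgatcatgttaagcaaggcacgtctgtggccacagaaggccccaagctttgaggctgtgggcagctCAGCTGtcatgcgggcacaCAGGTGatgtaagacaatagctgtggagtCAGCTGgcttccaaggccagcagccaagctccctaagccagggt
The Myl1, Sgca, Tnnt1 and Ckm windows hold 1 E-box each, and the Chrna1 window holds 3. In Chrna1 the first word (CAGCTG) begins 92 bases before the start, the next (CAGGTG) 73 bases and the last (again CAGCTG) 44 bases, while the single CAGCTG of Myl1 begins 224 bases before it and that of Ckm 249. The Sgca word is CATCTG (86 bases before the start) and the Tnnt1 word is CAGGTG (158 bases).

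For the genotype comparison, 25 muscle genes were tested within a fit over 10474 genes. By limma, 0 of the 25 had an adjusted p under 0.05, as did 0% of all genes (0 of 10474). At an unadjusted p under 0.05 the count was also 0 of 25, against 5.26% of all genes. The adjusted p of the 25 ranged from 0.945 to 0.996. In the MyoD+/- tumours 9 genes were higher (49.6% of all genes were) and 16 lower (50.4% of all genes). Their median log2 difference, taken as MyoD+/- minus MyoD+/+, was -0.05, against 0.00 over all genes. With median scaling in place of quantile normalization, 12 were higher and 13 lower (Itga7, Jph1 and Ryr1 changed sign), while the median of all genes moved to 0.13. The direction of the majority rests on single tumours: without MyoD+/+ tumour 3, 13 were higher and 12 lower (median 0.03), and without MyoD+/- tumour 1, 14 were higher and 11 lower (median 0.07). The groups did not overlap in 4 of the 25 (Chrnb1 and Tpm1 higher, Ldb3 and Tnnt1 lower in MyoD+/-), against 20.9% of all genes. The 95% interval stayed inside 2-fold higher and lower for 18 of the 25, against 87.7% of all genes. In bulk tumours, fewer cells of a type and less RNA per cell cannot be told apart.

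**Figure D2:**
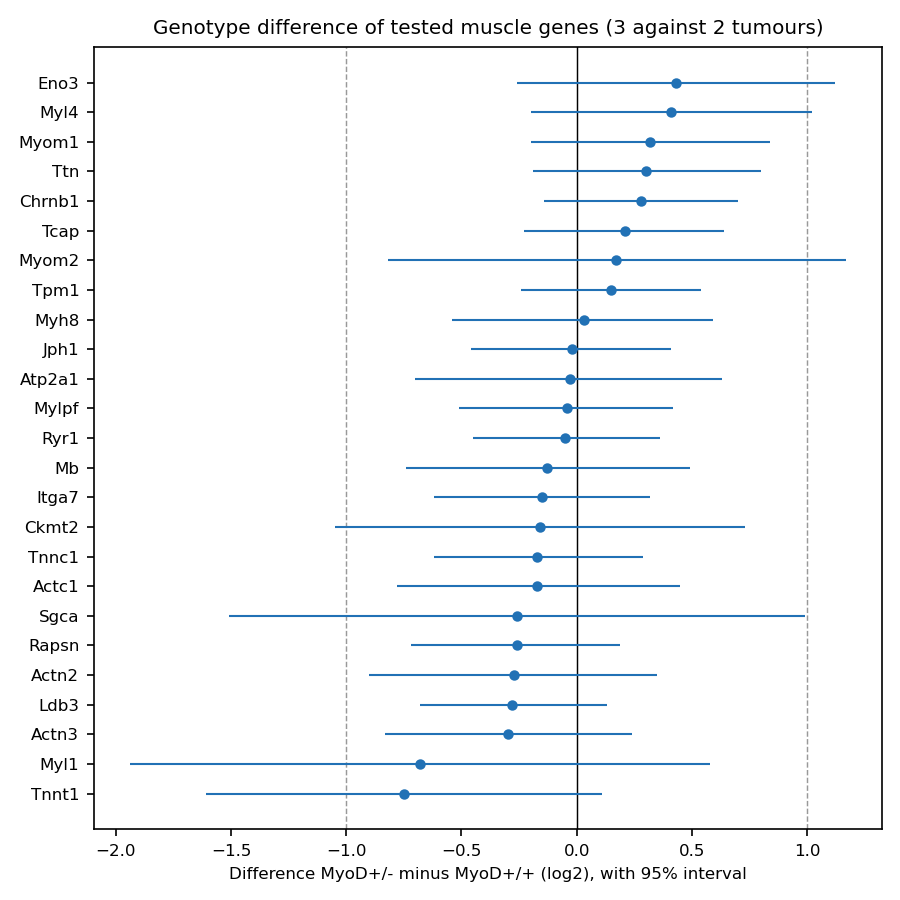
Genotype difference of each tested muscle gene (log2, MyoD+/- minus MyoD+/+, points) with its 95% interval from limma (bars), for 3 against 2 tumours; dashed lines mark a 2-fold difference. Each interval includes 0, and the points run from -0.75 (Tnnt1) to 0.43 (Eno3).

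Thin filament genes split between 1 well detected member and dim ones. Tropomyosin 1 (Tpm1), which lies along actin and is also made in non-muscle cells, was detected in all 5 tumours at 9.54, 9.42 and 9.53 in MyoD+/+ and 9.55 and 9.74 in MyoD+/-. Both MyoD+/- tumours lay just above the others, and the difference was 0.15 ± 0.17 (SE, n = 3 and 2; 95% interval -0.24 to 0.54; limma adjusted p = 0.963). A different Tpm1 probe gave 0.10 ± 0.20, and its remaining probe was detected on 0 arrays. The slow-muscle troponin Tnnt1, which ties troponin to tropomyosin, was at 5.39, 4.88 and 6.25 in MyoD+/+ and at 4.72 and 4.78 in MyoD+/-. It was detected in MyoD+/+ tumours 1 and 3 and in neither MyoD+/- tumour. Only a bound on the sample means can be given: MyoD+/- was at least 1.25-fold lower, with the undetected MyoD+/+ tumour 2 at its own level. The fitted difference was -0.75 ± 0.37 (95% interval -1.61 to 0.11, adjusted p = 0.945 in limma), and its interval includes 0. The bound rests on MyoD+/+ tumour 3: without it the MyoD+/+ mean was 5.13, under the 5.19 set for MyoD+/-, so that no bound remained, and the fitted difference was -0.38. Cardiac actin Actc1, the actin of heart and embryonic muscle, was at 5.36, 5.08 and 5.93 against 5.35 and 5.24 (-0.17 ± 0.26). The slow and cardiac troponin C gene Tnnc1, the calcium sensor of the thin filament, was at 5.51, 5.07 and 5.47 against 5.22 and 5.15 (-0.17 ± 0.19). In both, MyoD+/+ tumour 2 was the lowest, and the groups overlapped.

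The tested thick filament genes were 3 light chains, 1 heavy chain and titin. Myl4, the light chain of embryonic muscle and atria, was detected in all 5 tumours at 6.53, 5.95 and 6.78 in MyoD+/+ and 6.92 and 6.74 in MyoD+/-, a difference of 0.41 ± 0.26 (SE). Myl1, the fast-muscle alkali light chain, was at 5.63, 5.15 and 7.17 in MyoD+/+ and at 5.46 and 5.15 in MyoD+/-. MyoD+/+ tumour 3 alone stood high, with a raw signal of 277.0 against 171.5 in MyoD+/+ tumour 1, and the difference of -0.68 ± 0.54 had an interval from -1.94 to 0.58 (limma adjusted p = 0.957). Leaving out MyoD+/+ tumour 3 brought the difference to -0.08, and leaving out MyoD+/+ tumour 2 instead brought it to -1.10. The other 2 Myl1 probes were detected on 0 arrays. The fast regulatory light chain Mylpf was at 5.45, 5.05 and 5.47 against 5.38 and 5.18 (-0.04 ± 0.20). Perinatal myosin Myh8, the heavy chain of the newborn, was at 4.77, 4.96 and 5.46 against 4.95 and 5.23 on its main probe (0.03 ± 0.24) and differed by -0.31 ± 0.22 on its second detected probe. The 2 Myh8 probes thus had opposite signs. Titin (Ttn), the giant spring that spans the sarcomere from Z disc to M line, had 12 probes. Only 1 of them was detected on at least 2 arrays, at 5.10, 5.67 and 5.42 against 5.80 and 5.61 (0.30 ± 0.21).

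At the Z disc, Actn2, an alpha-actinin that cross-links thin filaments and also occurs in neurons, was detected in all 5 tumours at 5.66, 6.52 and 6.30 in MyoD+/+ and 5.96 and 5.82 in MyoD+/-. Its difference was -0.27 ± 0.27 (SE). The fast-fibre alpha-actinin Actn3 was at 5.19, 5.69 and 5.81 against 5.17 and 5.37 (-0.30 ± 0.23). Without MyoD+/+ tumour 1 both alpha-actinins came to an unadjusted p under 0.05, and neither passed the adjusted threshold. Tcap, which caps titin, was detected in all 5 tumours at 5.61, 5.77 and 5.38 against 5.73 and 5.86 (0.21 ± 0.18). Ldb3, which binds alpha-actinin, was at 5.14, 5.44 and 5.30 in MyoD+/+ and at 5.0 and 5.03 in MyoD+/-. As no Ldb3 probe was detected in a MyoD+/- tumour, the value is a bound of at least 1.08-fold lower (limma adjusted p = 0.957), and of 1.02 to 1.13 without single tumours. The M line proteins Myom1 (4.87, 4.66 and 5.27 against 5.15 and 5.36) and Myom2 (5.12, 4.66 and 5.92 against 4.89 and 5.92) were each detected in MyoD+/+ tumour 3 and MyoD+/- tumour 2 only. They differed by 0.32 ± 0.22 and 0.17 ± 0.42 (SE), with overlapping groups.

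**Figure D3:**
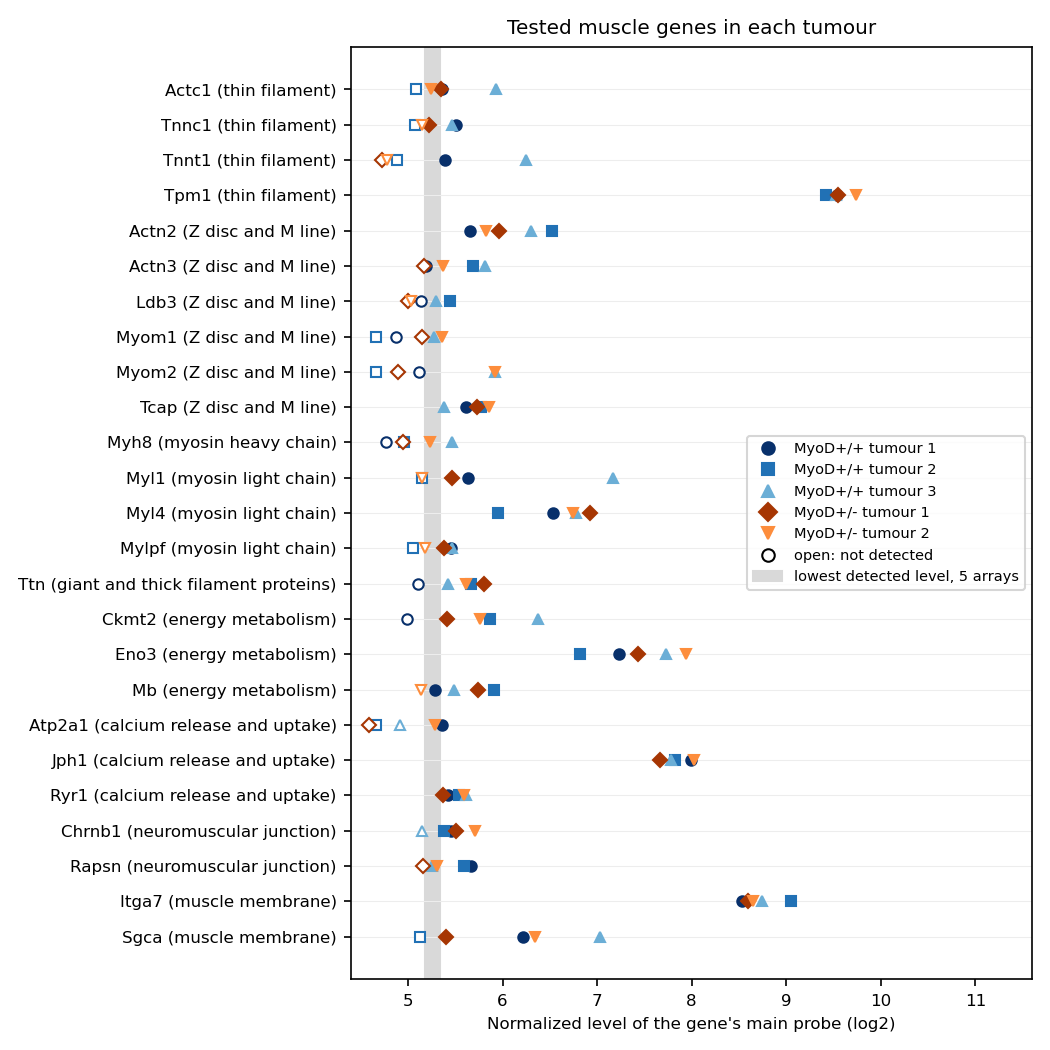
Normalized level (log2, horizontal axis) of the main probe of each tested muscle gene in the 5 tumours (blue for MyoD+/+, orange for MyoD+/-); open symbols are not detected, and the grey band spans the lowest detected level of the 5 arrays, 5.18 to 5.34. Most genes sit within or close to the band, with Tpm1, Itga7, Jph1 and Eno3 well to its right.

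Energy genes included one that was clearly present. The muscle enolase Eno3, a glycolytic enzyme, was detected in all 5 tumours at 7.23, 6.82 and 7.73 in MyoD+/+ and 7.43 and 7.94 in MyoD+/-. The difference was 0.43 ± 0.29 (SE, n = 3 and 2; 95% interval -0.26 to 1.12; limma adjusted p = 0.957), and MyoD+/+ tumour 3 lay between the MyoD+/- tumours. Sarcomeric mitochondrial creatine kinase Ckmt2 was at 4.99, 5.87 and 6.37 against 5.41 and 5.76 (-0.16 ± 0.38). Myoglobin (Mb), the oxygen store of muscle, was at 5.29, 5.91 and 5.49 against 5.74 and 5.14 (-0.13 ± 0.26). In these last 2 genes the spread within the MyoD+/+ tumours was wider than the difference between genotypes.

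Among the genes of calcium handling, junctophilin 1 (Jph1), which holds the sarcoplasmic reticulum close to the surface membrane, was detected in all 5 tumours at 7.99, 7.82 and 7.78 in MyoD+/+ and 7.66 and 8.02 in MyoD+/-. Its difference was -0.02 ± 0.18 (SE), with an interval from -0.46 to 0.41. The calcium release channel Ryr1, also known from Purkinje neurons, was detected in all 5 tumours on its main probe at 5.42, 5.54 and 5.61 against 5.37 and 5.59 (-0.05 ± 0.17). A second Ryr1 probe gave -0.26 ± 0.19, and the other 3 of its 5 probes were detected on 0 arrays. The fast calcium pump Atp2a1 was at 5.36, 4.66 and 4.91 against 4.59 and 5.29 (-0.03 ± 0.28), detected in 1 tumour of each genotype.

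At the neuromuscular junction, the acetylcholine receptor subunit Chrnb1 was at 5.45, 5.38 and 5.15 in MyoD+/+ and 5.51 and 5.71 in MyoD+/-. Both MyoD+/- tumours were the higher ones, with a difference of 0.28 ± 0.18 (SE; limma adjusted p = 0.957). Rapsyn (Rapsn), which clusters the receptor, was at 5.67, 5.59 and 5.25 against 5.16 and 5.31 (-0.26 ± 0.19). The receptor subunits Chrna1, Chrnd and Chrng, with which Chrnb1 assembles in muscle, were the undetected ones named above.

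In the muscle membrane, integrin alpha 7 (Itga7), a laminin receptor that blood vessels and glia also carry, was detected in all 5 tumours at 8.53, 9.05 and 8.74 in MyoD+/+ and 8.60 and 8.65 in MyoD+/-. Its difference was -0.15 ± 0.20 (SE). Alpha-sarcoglycan (Sgca), a part of the dystrophin complex, was at 6.22, 5.13 and 7.03 against 5.40 and 6.34. Sgca was high in MyoD+/+ tumour 3 and low in MyoD+/+ tumour 2 and MyoD+/- tumour 1, a difference of -0.26 ± 0.53 with overlapping groups. A second Sgca probe had the same order of tumours, at 5.34, 4.64 and 6.59 against 4.74 and 5.67 (-0.32 ± 0.53). The remaining probe was detected on 0 arrays.

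Several muscle genes differed between single tumours. The gap between the highest and the lowest tumour had a median of 0.69 log2 units over the 25 tested muscle genes and 0.56 over all genes tested, which had higher levels. It exceeded 1 log2 unit in 6 of the 25, namely Myl1 (2.03), Sgca (1.89), Tnnt1 (1.52), Ckmt2 (1.38), Myom2 (1.26) and Eno3 (1.12). Over all genes tested, 88.6% had a gap of up to 1.02. The gap of Ryr1 was 0.25, that of Tpm1 0.32 and that of Jph1 0.36. MyoD+/+ tumour 3 was the highest for 10 of the 25 genes (19.9% of all genes tested), and MyoD+/+ tumour 2 was the lowest for 10 of the 25 (23.1% of all genes). These counts are descriptions with no test. Of the 114 muscle probes, 25, 18 and 27 were detected in MyoD+/+ tumours 1 to 3, and 19 and 23 in the MyoD+/- tumours. Over all probes of the array the share detected was also lowest in MyoD+/+ tumour 2 (37.0%), and its part in the low muscle values was not tested.

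**Figure D4:**
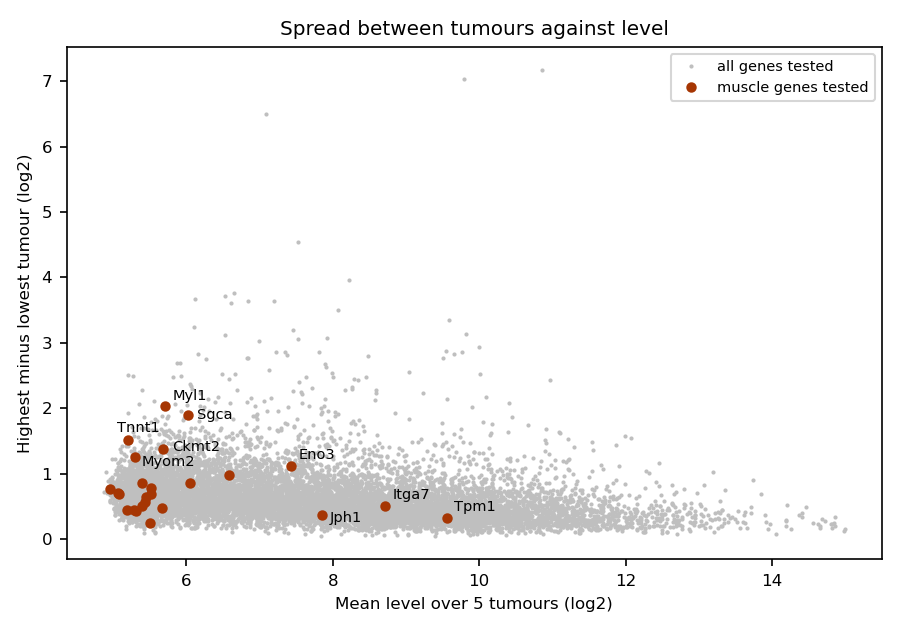
Gap between the highest and the lowest tumour (log2, vertical axis) against the mean level over 5 tumours (log2, horizontal axis) for all 10474 genes tested (grey) and the 25 muscle genes (brown). Myl1, Sgca and Tnnt1 lie in the upper part of the cloud at low levels, while Tpm1, Itga7 and Jph1 lie among genes of like level.

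Of 53 muscle genes outside the set 48 had a probe, 22 were detected on at least 2 arrays and 24 on 0 arrays. Of the 22, 14 were higher and 8 lower in MyoD+/- (median 0.11), and 0 passed in limma. A list of skeletal fibre markers, which includes members of the set, had 10 with a probe, of which 5 were at 0 arrays (Ckm, Myh1, Myh4, Tnnt3 and Tnni2) and 5 were tested (Acta1, Tnnc2, Mylpf, Atp2a1 and Pvalb). The summed level (log2) of the 5 was 12.70 to 13.12 in MyoD+/+ and 12.42 to 13.11 in MyoD+/-. Such a sum mostly follows its brightest probes, so sums are compared only between tumours and do not rank genes. Most of that sum was Pvalb, a calcium buffer that cerebellar interneurons also make, at 12.88, 12.67 and 11.83 in MyoD+/+ and 11.87 and 12.12 in MyoD+/-. Without Pvalb the sum of the other 4 was 10.43, 7.06 and 11.64 against 10.75 and 12.09, lowest in MyoD+/+ tumour 2. Within these 4, the fast troponin C gene Tnnc2 was at 10.04, 4.92 and 11.46 against 10.59 and 11.95, and skeletal actin Acta1 was at 7.92, 5.49 and 8.23 against 6.78 and 8.34. As for Sgca, MyoD+/+ tumour 2 was the lowest in both. Of 13 myogenic regulators 11 had a probe and 4 were tested (Myod1, Myog, Mef2c and Cdh15), 1 higher and 3 lower, with 0 passing.

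Markers of other cells that share contractile genes were measured beside these. Of 16 smooth muscle and mural cell markers 11 were tested, 3 higher and 8 lower, and 0 passed. Tagln, Myh11, Cnn1 and Lmod1 were at 0 arrays, while other markers of the list were detected in all 5 tumours. Among these, Acta2 was at 7.29, 6.91 and 8.12 in MyoD+/+ and at 7.77 and 7.82 in MyoD+/-. Rgs5 was at 8.37, 8.44 and 8.51 against 8.04 and 8.45. Cspg4 had the smallest unadjusted p of the 11 (0.0422 in limma, adjusted p = 0.936). It was lower in MyoD+/-, at 6.27, 6.94 and 6.45 against 6.06 and 5.91, a difference of -0.57. Its groups did not overlap, as in 20.9% of all genes tested. The summed level (log2) of the 11 was 10.12 to 10.44 in the MyoD+/+ tumours, highest in MyoD+/+ tumour 3, and 10.20 to 10.23 in the MyoD+/- tumours. Of 7 cardiac markers 6 had a probe and 3 were tested, with Myh6, Tnni3 and Myl7 at 0 arrays. The cardiac sum was 8.35, 7.38 and 9.23 in MyoD+/+ and 8.04 and 8.68 in MyoD+/-, lowest in MyoD+/+ tumour 2 and highest in MyoD+/+ tumour 3. Its order was that of Mybpc3, cardiac myosin-binding protein C, at 8.01, 6.43 and 9.06 against 7.62 and 8.43. The natriuretic peptide genes, the other tested markers, were dim, and Nppa was highest in MyoD+/+ tumour 2 (5.21, 5.77 and 4.79 against 5.31 and 4.70). The part of these cells in the muscle gene values was not tested.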

How the data were processed

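RNA from 5 medulloblastomas was hybridised to Illumina mouse bead arrays, 1 per tumour, with biotin-labelled cRNA, per the labels' protocols. The authors deposited a signal intensity and a detection p-value for each of 45281 probes, not normalized per the file headers. The authors also deposited processed log2 values, which equal the log2 of quantile-normalized signals (largest difference 5e-09), as found from the files. For the signals, the software was not stated in the labels or headers read here.

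Groups follow the genotype labels, and tumours were numbered in the order listed, which pairs no samples. Probe names are those of the platform annotation, updated through a RefSeq gene table (GRCm38.p6). Of the probes 34885 had 1 symbol, 18 several and 10378 none, 34807 matched the table, and 0 symbols changed. Background correction, quantile normalization and log2 were done by neqc (limma 3.58.1, R 4.3.3), which infers the negative controls from the detection p-values; the offset was 16. Probes detected (p under 0.05) on at least 2 arrays were kept (18675), and each gene was represented by the kept probe of highest mean level (10474 genes). Genotypes were compared with lmFit and eBayes, two-sided, with Benjamini-Hochberg adjustment over all genes tested and a threshold of 0.05. The fit was tested on simulated data. The offset makes differences of dim genes smaller. A gene with no detected probe in a genotype has only a bound, set against the lowest detected level of each array or the gene's own level where higher. Undetected tumours of the other genotype kept their own level, so the bound describes the sample means and is not an interval. Every tested gene of the set was named. For other lists the plan was to name at most 3 genes by smallest p, which was not followed throughout. Ckb, Myh10, Eno2 and Ckmt1 among the paralogs, and Acta2 and Rgs5 among the smooth muscle markers, were chosen after their values were seen. The genes and lists were chosen with earlier results of these data known. The number of arrays limits the precision.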

Additional observations from a re-analysis of the deposited data

How the results depend on the processing

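By limma, 0 of the tested muscle genes had an adjusted p under 0.05 under each alternative run (normalization, offset, filter, probe rule, variance model, weights, block and leaving out each tumour). Over all genes, 2 passed with robust estimation and a mean-variance trend, and between 0 and 1 without single tumours (1 without MyoD+/+ tumour 2, Gdpd3, and 1 without MyoD+/+ tumour 3, Zdbf2). At an unadjusted p under 0.05 (limma) there were 0 of 25 muscle genes in the main run, against 5.26% of all genes. Without a filter the count was 1 of 54 (Pygm), against 5.24% of all genes. Array weights gave 1 (Tnnt1), against 6.36%. With the title letters as a block there were 4 (Actn2, Actn3, Ckmt2 and Tnnt1), where 8.39% of all genes reached it. The other runs on all 5 tumours gave 0. Without MyoD+/+ tumour 1, Actn2 and Actn3 reached it (5.05% of all genes). Tnnt1 did so without MyoD+/+ tumour 2 (5.02% of all genes), and Eno3 and Myom1 without MyoD+/+ tumour 3 (6.5% of all genes). The median difference of the muscle genes was 0.15 with the stricter filter, which left 7 genes, and -0.16 to 0.07 without single tumours. Median scaling moved the median of all genes to 0.13, and of the muscle genes 12 were then higher and 13 lower (71.5% of all genes higher, against 49.6%). The number of detected genes was 10 at a detection p of 0.01, 8 on all 5 arrays and 29 on at least 1 array.

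Differences near 0 changed sign: with median scaling Itga7 (0.02), Jph1 (0.12) and Ryr1 (0.01); with the mean of a gene's probes Myh8 (-0.14); with array weights Ckmt2 (0.04); with the title letters as a block Atp2a1 (0.16), Jph1 (0.04), Myh8 (-0.12) and Mylpf (0.02). Without single tumours the ranges that crossed 0 were Actc1 (-0.35 to 0.07), Atp2a1 (-0.38 to 0.31), Ckmt2 (-0.54 to 0.15), Jph1 (-0.20 to 0.15), Mb (-0.43 to 0.18), Myh8 (-0.12 to 0.23), Mylpf (-0.18 to 0.06), Myom2 (-0.34 to 0.69), Ryr1 (-0.16 to 0.07) and Sgca (-0.75 to 0.21). The cause of these changes was not tested. The replicate numbers follow the order of the samples and pair nothing. The letters in the titles, whose meaning the labels do not give, are V for MyoD+/+ tumour 2 and MyoD+/- tumour 1 and P for MyoD+/+ tumour 3 and MyoD+/- tumour 2. With the letters as a block the difference was taken within those pairs, without MyoD+/+ tumour 1, whose letters no other tumour has (Ckmt2 -0.54, unadjusted p = 0.0262, limma adjusted p = 0.588; Actn2 -0.53, unadjusted p = 0.0276, limma adjusted p = 0.588). The labels do not state whether the letters mark a pairing. With 5 tumours this block leaves little replicate spread in the fit. The p-values of the block run therefore rest largely on the variance that eBayes takes from all genes. The bounds without single tumours and the fibre marker sum without Pvalb were added after seeing the data. The mean difference in that sum (MyoD+/- minus MyoD+/+, log2, with no test) was -0.09 with Pvalb and 1.71 without it. The 1.71 rests largely on MyoD+/+ tumour 2, where the sum was 7.06, against 10.43 and 11.64 in the other MyoD+/+ tumours. Tnnc2 was at 4.92 in that tumour and at 10.04 or above in the others. Most tested muscle genes were within or just above the band of the lowest detected levels, which limits what can be measured.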

Other observations

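Some genes outside the muscle set, chosen after their values were seen, had their lowest values in MyoD+/+ tumour 2 and MyoD+/- tumour 1, which were also low for Sgca. Both have the letter V in their titles, and both tumours with the letter P were among the higher ones. The labels do not explain the letters, and their part in these values was not tested. The neuronal enolase Eno2 was at 12.06, 11.24 and 12.60 in the MyoD+/+ tumours and at 11.16 and 12.28 in the MyoD+/- tumours (log2). The ubiquitous mitochondrial creatine kinase Ckmt1 was at 10.80, 9.80 and 10.93 against 9.70 and 10.88. Cardiac myosin-binding protein C (Mybpc3), detected in all 5 tumours, was at 8.01, 6.43 and 9.06 against 7.62 and 8.43. With 5 tumours no correlation between these genes and Sgca was computed.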
